A study of Mus musculus with 6 samples.

Results

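The genes described here are the interferon regulatory factors (IRFs) and the feedback inhibitors of interferon signalling: Irf1, Irf2, Irf3, Irf5, Irf7, Irf8, Irf9, Usp18, Socs1 and Socs3. They were chosen by symbol, as every probe set whose annotated gene symbol is exactly one of these names. All 10 genes were measured, by 17 of the 20380 probe sets with 1 annotated gene, which stand for 12393 genes in all. Wild-type mouse embryonic fibroblasts (MEFs), connective tissue cells grown from mouse embryos, were starved for 6 h (3 arrays), and control cells of the same kind stayed in normal medium (3 arrays). The labels do not say what the starvation medium lacked, nor from how many embryos or cultures the cells came. The titles speak of biological replicates but do not say whether separate cultures were used, so p-values reflect the spread between these 6 samples alone, and that spread may be technical. The question is which of these transcripts change when fibroblasts are starved.

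IRFs share an amino-terminal DNA-binding domain that recognises repeats of GAAA. Type I interferon acts through its receptor and the kinases JAK1 and TYK2 on STAT proteins, among them STAT2, which with IRF9 form the complex ISGF3, the activator of interferon-stimulated genes at interferon-stimulated response elements. Interferon gamma acts through STAT dimers at gamma-activated sites, and Irf1 is a well-known target of this pathway. IRF3 and IRF7 are switched on by phosphorylation downstream of nucleic acid sensors and start transcription of the type I interferon genes themselves. The loop is closed by inhibitors: USP18 removes the ubiquitin-like protein ISG15 from its targets and blocks the type I receptor, SOCS1 inhibits JAK kinases, and SOCS3 mainly restrains receptors that signal through gp130 and STAT3.

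Levels are log2 array signals as the authors deposited them, and differences are starved minus control on that scale. Each difference was tested with limma across all 20380 probe sets, and an adjusted p (Benjamini-Hochberg) under 0.05 counts as called, and "rose" and "fell" refer to this test. A gene with several probe sets is described by the brightest, and the others are given beside it. Arrays correlated at 0.996 or more within starved and 0.998 or more within control, against 0.982 to 0.985 between the groups. Of 13 fibroblast markers 12 lay above the median probe set, with the surface marker Thy1 below it. The mean of the 27 probe sets for poly-A spike-ins, RNAs added in fixed amounts, was 7.31 on starved and 6.93 on control arrays, and their part in the results was not tested. Centring each array on them, called poly-A scaling below, subtracts 0.37 from every difference and moves the median of all probe sets to −0.42, against −0.04 as deposited. Directions below are those of the deposited scaling, and genes whose direction or call turns under poly-A scaling are named where they appear.

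Starved fibroblasts had much higher levels of Usp18 and of 4 IRF genes, Irf7, Irf9, Irf2 and Irf1. Usp18 was 13.1-fold higher, Irf7 6.30-fold, Irf9 3.66-fold, Irf2 2.33-fold and Irf1 2.08-fold. Socs1 rose slightly, though not under poly-A scaling, whereas Socs3 was 1.46-fold lower. Irf3, Irf5 and Irf8 were not called by their brightest probe sets, though under poly-A scaling all of them were called as fallen. In RNA from whole cultures, a change in the share of cells that express a gene and a change in RNA per cell cannot be told apart.

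By probe set, 7 of the 17 rose, 3 fell and 7 were not called. Over all probe sets 40.9% were called, 20.4% as risen and 20.5% as fallen. Under poly-A scaling 5 of the 17 rose and 8 fell, while 14366 of all 20380 probe sets fell, and risen probe sets made up 9.60% of all calls, against 49.8% as deposited. Centring on the hybridization spike-ins subtracts 0.19 from every difference. There 5 of the 17 rose and 6 fell, and risen probe sets made up 21.3% of all calls, so most calls were falls. Calls as fallen under either spike-in centring below are to be read beside this shift of all probe sets. A call as risen with a difference of at least 1 was reached by 5 of the 17 probe sets, those of Usp18, Irf7, Irf9, Irf2 and Irf1, against 2.41% of all probe sets. The groups did not overlap for 11 of the 17, against 52.2% of all probe sets, so this share lies near the background. By brightest probe set, 6 of the 10 genes rose, 1 fell and 3 were not called, with a median difference of 0.68, beside 42.0% of all genes called and a median of −0.05 over all genes. Their groups did not overlap for 8 of the 10 genes, against 54.0% of all genes. For a single gene compared on its own, an exact two-sided permutation test of 3 arrays against 3 cannot go below 0.1.

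**Figure D1:**
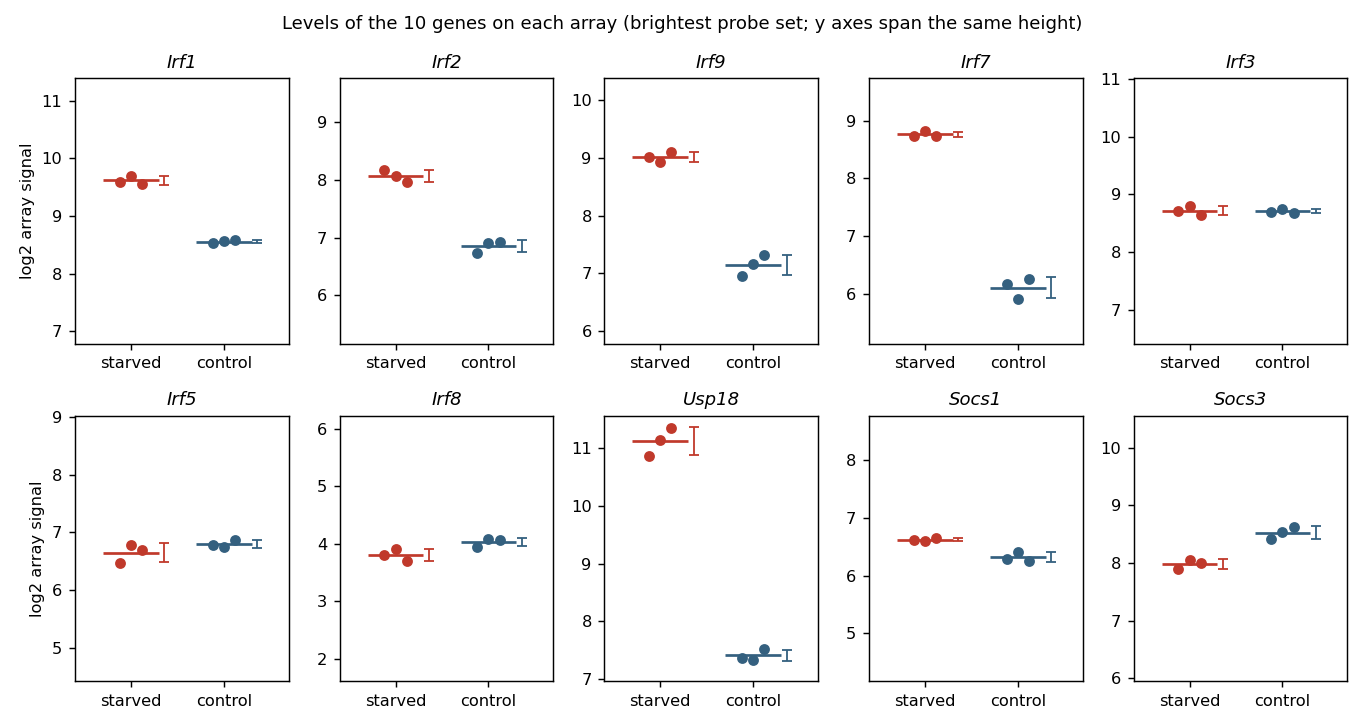
Log2 array signal (y axis, of equal span in every panel) of the brightest probe set of each gene on the 3 starved arrays (left, red) and the 3 control arrays (right, blue). Points are arrays, horizontal lines are means and bars are the SD (n = 3). Usp18, Irf7, Irf9, Irf2 and Irf1 lie apart between the groups by at least 0.98, and Irf3 and Irf5 overlap.

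Irf7, the IRF that amplifies production of type I interferon, changed most among the IRFs. Its probe set had 8.74, 8.81 and 8.73 on starved arrays, against 6.16, 5.90 and 6.25 on control arrays. The starved arrays lay within 0.08 of each other, and the lowest of them was 2.49 above the highest control array. The difference was 2.66 (SE 0.10, 95% CI 2.44 to 2.87, limma adjusted p = 2.45e-07), the 23rd largest rise of all probe sets. The 300 bases around the annotated start of Irf7 (RefSeq, GRCm38.p6, chr7:141266375-141266674, minus strand) are shown because this IRF changed most. The window runs from 250 bases before to 50 bases after the start, and it holds neither of the motifs searched, GAAANNGAAA for an ISRE-like repeat and TTCNNNGAA for a gamma-activated site (both strands, overlapping matches allowed).
Irf7: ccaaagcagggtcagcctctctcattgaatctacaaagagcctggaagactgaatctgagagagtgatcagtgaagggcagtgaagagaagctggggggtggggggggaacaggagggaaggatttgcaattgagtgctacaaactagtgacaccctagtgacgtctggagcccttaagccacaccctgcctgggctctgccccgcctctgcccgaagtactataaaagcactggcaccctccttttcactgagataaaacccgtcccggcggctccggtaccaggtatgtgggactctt
Of all 32851 promoter windows of this length in the table, 3.44% hold GAAANNGAAA and 8.3% hold TTCNNNGAA. Windows were found for 9 of the 10 genes, 12 windows in all.

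Irf9, the DNA-binding subunit of ISGF3, had 9.02, 8.93 and 9.11 on starved arrays, against 6.96, 7.17 and 7.31 on control arrays. All starved arrays lay above all control arrays, by 1.62 at the closest. Its level was 9.02 ± 0.09 in starved and 7.15 ± 0.18 in control cells (SD, n = 3), a difference of 1.87 (SE 0.10, limma adjusted p = 1.89e-06). Both Irf9 windows lacked both motifs. Irf9 has 1 probe set, of the kind whose name ends in _a_at, which can bind alternative transcripts of the same gene. The same holds for the probe sets of Irf1, Irf7 and Socs1.

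Irf1, an activator of interferon gamma targets and of antigen presentation genes, had 9.59, 9.70 and 9.56 on starved arrays, against 8.52, 8.57 and 8.58 on control arrays. The groups were 0.98 apart at their closest, and the control arrays spanned only 0.05. The difference was 1.06 (SE 0.07, 95% CI 0.90 to 1.22, limma adjusted p = 6.52e-06). Irf2, which binds the same elements as IRF1 and is known mainly as its antagonist, had 8.17, 8.07 and 7.98 on starved arrays, against 6.73, 6.91 and 6.92 on control arrays. The starved arrays again lay above all control arrays, by 1.05 at the closest. Irf2 differed by 1.22 (SE 0.09, 95% CI 1.03 to 1.41, limma adjusted p = 8.12e-06). The name of its only probe set ends in _s_at, the mark of probes that can bind transcripts of several genes, so no other probe set checks this value.

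The windows of Irf1 and Irf2 (RefSeq, GRCm38.p6) are shown because these genes rose and their windows hold a searched motif, here in capitals. That of Irf1 is chr11:53769764-53770063, plus strand, with 1 match to TTCNNNGAA, TTCCCCGAA, whose first base lies 90 bases before the annotated start. That of Irf2 is chr8:46739495-46739794, plus strand, with GAAAATGAAA at 241 bases and TTCCGAGAA at 224 bases before the start.
Irf1: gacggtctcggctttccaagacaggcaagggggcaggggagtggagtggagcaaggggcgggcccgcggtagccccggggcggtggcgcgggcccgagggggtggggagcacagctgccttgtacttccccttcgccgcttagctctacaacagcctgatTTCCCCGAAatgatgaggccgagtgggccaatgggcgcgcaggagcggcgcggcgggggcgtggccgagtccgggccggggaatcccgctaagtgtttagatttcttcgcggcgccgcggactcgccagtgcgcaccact
Irf2: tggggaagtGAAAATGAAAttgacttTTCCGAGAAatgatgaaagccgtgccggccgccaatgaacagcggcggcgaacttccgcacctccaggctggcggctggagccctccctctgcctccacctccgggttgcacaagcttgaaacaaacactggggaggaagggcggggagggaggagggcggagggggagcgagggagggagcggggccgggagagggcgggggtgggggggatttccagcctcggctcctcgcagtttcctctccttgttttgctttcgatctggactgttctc
A further window of Irf1, at another annotated start, holds neither motif. The motifs in these windows do not overlap, and a match describes letters, not a site in use.

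Irf3, which is expressed in most cells and controlled mainly by phosphorylation of its protein, was measured by 4 probe sets, none of them called. The brightest, whose name ends in _x_at, the mark of probes that can cross-hybridise, had 8.71, 8.79 and 8.64 on starved arrays. On control arrays it had 8.70, 8.75 and 8.68. The arrays of the groups lay among each other, and the difference was 0.003 (SE 0.07, 95% CI −0.16 to 0.17, limma adjusted p = 0.980). Its dimmer probe sets differed by 0.06, 0.25 and 0.08, with adjusted p of 0.515, 0.230 and 0.753. The interval of the brightest leaves room for a change of up to 0.17 either way in the deposited scaling, and under poly-A scaling this probe set lay at −0.37 and was called as fallen (limma adjusted p = 0.00208), as was the dimmer probe set at 0.06 (−0.31 there, limma adjusted p = 0.00911).

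Irf5, best known from macrophages, where it drives inflammatory cytokine genes, had probe sets that disagreed. The brighter had 6.47, 6.79 and 6.69 on starved arrays, against 6.78, 6.75 and 6.88 on control arrays, which overlap. Its difference was −0.15 (SE 0.09, limma adjusted p = 0.237), but it was called as fallen under poly-A scaling (−0.52, limma adjusted p = 0.000671) and with centring on the hybridization spike-ins (−0.34, limma adjusted p = 0.00819). The dimmer had 5.35, 5.33 and 5.28 on starved arrays, against 5.01, 5.10 and 4.93 on control arrays, and here all starved arrays lay higher. This probe set rose by 0.31 (SE 0.07, limma adjusted p = 0.00902), yet lay at −0.07 and was not called under poly-A scaling, so no direction is given for Irf5. The mean of both probe sets did not pass (0.08, limma adjusted p = 0.359).

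Irf8, a factor of the myeloid and B cell lineages, lay near the dim end of the arrays. Its brighter probe set had 3.81, 3.92 and 3.71 on starved arrays, against 3.95, 4.08 and 4.07 on control arrays. That is the 17.6th percentile of probe set levels. The groups just failed to overlap, by 0.03, and the difference of −0.22 (SE 0.08) missed the threshold (limma adjusted p = 0.0599). With 1 value per gene in the fit it passed (limma adjusted p = 0.0484), as it did with median centring, without starved replicate 2, with centring on the hybridization spike-ins and under poly-A scaling (−0.59, limma adjusted p = 0.000135). The other Irf8 probe set differed by −0.10 (limma adjusted p = 0.336) and was called as fallen under poly-A scaling (−0.47, limma adjusted p = 0.000626) and with centring on the hybridization spike-ins (−0.28, limma adjusted p = 0.0134). Markers of macrophages and other blood cells were also dim: 18 of 19 lay below the median probe set, 0 rose and 2 fell, against 17 fallen under poly-A scaling. Their summed linear signal was 538 to 579 on starved and 625 to 665 on control arrays, and its part in the Irf8 values was not tested. Cd14, the brightest of them, weighs most in this sum and fell from 7.75 in control to 7.29 in starved cells. The median difference of the 19 markers was −0.07. The summed signal of endothelial markers was also lower, 164 to 176 on starved and 195 to 205 on control arrays. That of epithelial markers overlapped (160 to 177 and 172 to 197), and that of fibroblast markers was higher on starved arrays. Among the IRFs outside the 10 genes, Irf4, another lymphoid and myeloid factor, was measured at 4.05 ± 0.18 in starved and 4.14 ± 0.15 in control cells (SD, n = 3) and was not called (difference −0.09, limma adjusted p = 0.544), but was called as fallen under poly-A scaling (−0.47, limma adjusted p = 0.00195) and with centring on the hybridization spike-ins (−0.28, limma adjusted p = 0.0375).

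**Figure D2:**
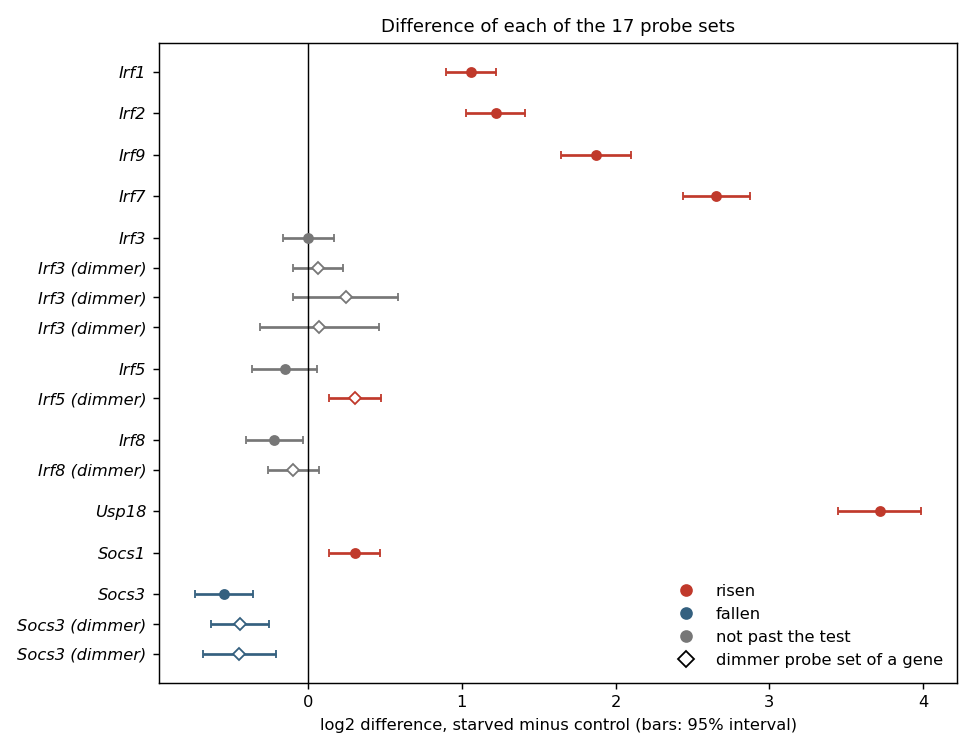
Log2 difference, starved minus control (x axis), of each of the 17 probe sets, with its 95% interval from limma (n = 3 arrays per group). Filled circles are the brightest probe set of a gene and open diamonds dimmer ones, in red where the probe set rose, blue where it fell and grey where it was not called. The intervals of Usp18, Irf7, Irf9, Irf2 and Irf1 lie above 0.89, the 3 Socs3 intervals lie below 0, and the Irf5 probe sets fall on opposite sides of 0.

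Among the feedback inhibitors Usp18 rose most, and it held the 5th largest rise of all probe sets. It had 10.87, 11.15 and 11.35 on starved arrays, against 7.37, 7.34 and 7.52 on control arrays. The lowest starved array was 3.35 above the highest control array, and the starved arrays spread more than the control arrays (SD 0.24 and 0.10). The difference was 3.72 (SE 0.12, 95% CI 3.45 to 3.99, limma adjusted p = 1.44e-07). This value comes from 1 probe set, whose name carries no mark of binding other transcripts.

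Socs1 had 6.62, 6.61 and 6.66 on starved arrays, against 6.29, 6.42 and 6.26 on control arrays. The starved arrays lay within 0.05 of each other and 0.19 above the highest control array. The rise was small, 0.31 (SE 0.07, 95% CI 0.14 to 0.47, limma adjusted p = 0.00877), and under poly-A scaling the difference was −0.07 and not called. The Socs1 window (RefSeq, GRCm38.p6, chr16:10785487-10785786, minus strand) is shown because it was the only window of the 12 with more than 1 match to GAAANNGAAA. The matches, GAAAGAGAAA at 83 bases and GAAACCGAAA at 77 bases before the start, overlap in 1 GAAA, and 0.225% of all windows hold 2 or more.
Socs1: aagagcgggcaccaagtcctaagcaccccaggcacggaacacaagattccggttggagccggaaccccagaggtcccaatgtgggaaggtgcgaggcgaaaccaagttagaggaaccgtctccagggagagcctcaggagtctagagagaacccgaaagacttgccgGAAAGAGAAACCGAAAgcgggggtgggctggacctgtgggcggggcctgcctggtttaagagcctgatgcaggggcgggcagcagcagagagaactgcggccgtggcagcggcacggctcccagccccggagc

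Socs3 was the member that fell in the deposited scaling, and its 3 probe sets fell alike. The brightest had 7.90, 8.06 and 8.0 on starved arrays, against 8.41, 8.53 and 8.63 on control arrays. All starved arrays lay lower, by 0.36 at the closest. The difference was −0.54 (SE 0.08, 95% CI −0.73 to −0.35, limma adjusted p = 0.000748). The dimmer probe sets differed by −0.44 each, with limma adjusted p of 0.00234 and 0.00760, and their groups did not overlap either. The names of the brightest and of 1 dimmer end in _x_at, which marks probes that can cross-hybridise, but that of the third, with 7.66, 7.56 and 7.43 on starved and 8.06, 7.93 and 7.98 on control arrays, does not. The fall was larger under poly-A scaling, at −0.92 for the brightest. The Socs3 window (RefSeq, GRCm38.p6, chr11:117969317-117969616, minus strand) is shown as that of the gene that fell, with 1 match to TTCNNNGAA, TTCTTAGAA, at 154 bases before the start.
Socs3: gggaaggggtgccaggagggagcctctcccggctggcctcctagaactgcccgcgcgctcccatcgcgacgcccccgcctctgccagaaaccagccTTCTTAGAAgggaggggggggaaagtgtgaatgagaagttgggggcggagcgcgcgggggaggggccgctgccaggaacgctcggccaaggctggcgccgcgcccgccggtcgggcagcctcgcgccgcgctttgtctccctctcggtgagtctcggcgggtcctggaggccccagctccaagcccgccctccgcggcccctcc
The Irf8 window at its upstream start also holds TTCNNNGAA, at 171 and 153 bases before the start, and those of Irf3 and Irf5 hold neither motif.

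**Figure D3:**
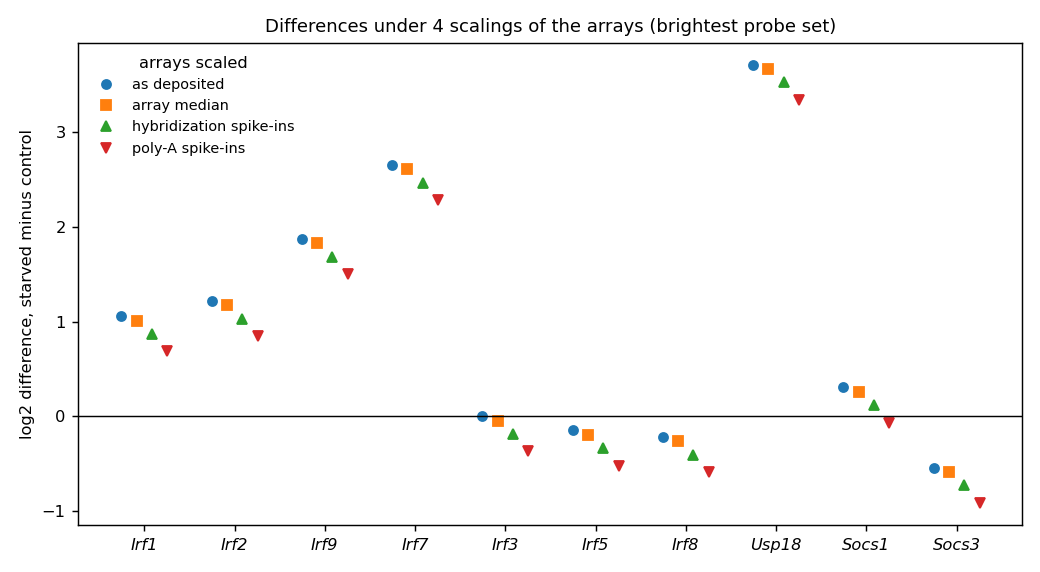
Log2 difference, starved minus control (y axis), of the brightest probe set of each gene with the arrays as deposited and centred on their median, on hybridization spike-ins or on poly-A spike-ins. Usp18, Irf7, Irf9, Irf2 and Irf1 stay above 0.68 and Socs3 below −0.54 under all 4, Socs1 crosses 0, and Irf3 lies between 0.003 and −0.37.

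The genes whose 6 array values lay nearest to those of Usp18, by Euclidean distance after subtracting each probe set's control mean, were Rtp4 (distance 0.33), a chaperone of receptor traffic, the chemokine gene Cxcl10 (0.45) and the oligoadenylate synthetase-like gene Oasl2 (0.52). They differed by 3.55, 3.60 and 3.69. Nearest to Irf7 lay the guanylate-binding protein gene Gbp2b (distance 0.13), the thioredoxin-binding protein gene Txnip (0.27) and the helicase gene Ddx60 (0.27), which differed by 2.63, 2.55 and 2.56. These distances over 6 arrays describe likeness mainly in the size of the group difference.

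Around the 10 genes, Stat2 and most targets of ISGF3 rose, whereas calls among ligands and receptors depended on the scaling. Of 15 genes for interferon receptors, JAK kinases and STATs 8 rose and 0 fell, with a median of 0.32, which became −0.06 under poly-A scaling, with 1 risen and 5 fallen genes there. Falls under that scaling, in this group and those below, stand beside a fall of most of all probe sets. Stat2, which pairs with IRF9 in ISGF3, had 8.11, 8.57 and 8.43 on starved arrays, against 5.90, 5.85 and 5.85 on control arrays, a difference of 2.50 (SE 0.11, limma adjusted p = 6.08e-07). It was the gene of this group that also rose under poly-A scaling. Tyk2 rose by 0.60 and Stat3 by 0.44, calls lost under that scaling (0.22 and 0.06), and the 2 dimmer Stat3 probe sets were not called, though 1 of them was called as fallen there (−0.41). Ifnar1 (−0.13), Ifnar2 (−0.04) and Jak1 (−0.07) were not called in the deposited scaling, but all 3 were called as fallen under poly-A scaling (−0.51, −0.41 and −0.44) and with centring on the hybridization spike-ins (−0.32, −0.22 and −0.26).

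Of 9 interferon ligand genes 1 rose and 0 fell in the deposited scaling. Under poly-A scaling 0 rose and 7 fell, and with centring on the hybridization spike-ins 0 rose and 3 fell. All 9 were dim, and none remained when the dimmest 40% of probe sets were left out. The gene that rose was Ifnb1, interferon beta, with 4.35, 4.37 and 4.29 on starved arrays, against 3.91, 4.07 and 3.91 on control arrays. The groups did not overlap, but the probe set was dim (the 20.8th percentile), and its difference of 0.37 (limma adjusted p = 0.00362) became −0.002 under poly-A scaling. Among 17 genes grouped around the activation of IRF3 and IRF7, 7 rose and 2 fell, and under that scaling 4 rose and 7 fell. The RNA sensor gene Ifih1 rose by 2.44 and the ubiquitin ligase gene Trim21 by 1.78, while Sting1, an adaptor of DNA sensing, fell by 0.67. Tlr9 fell by 0.38, but its probe set was dim (the 20.9th percentile). The kinase gene Tbk1, whose product phosphorylates IRF3, was not called (0.13, limma adjusted p = 0.192), but turned direction and was called as fallen under poly-A scaling (−0.24, limma adjusted p = 0.0333).

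Genes with roles next to the inhibitors went different ways. Of 6 other SOCS family genes 3 fell and 0 rose, against 6 fallen under poly-A scaling and 4 with centring on the hybridization spike-ins. Socs2, an inhibitor of growth hormone signalling, had 5.86, 5.74 and 5.50 on starved arrays, against 7.52, 7.29 and 7.55 on control arrays, and its fall of 1.75 was larger than that of Socs3 on this scale, a difference between genes that was not tested. Socs4 (−0.35) and Socs5 (−0.22) were the others that fell, and 1 of the 6 was called without starved replicate 2, without control replicate 2 or without control replicate 3. Of the dimmer Socs4 probe sets 1 fell (−0.42) and 1 was not called (−0.13) in the deposited scaling. Cish was not called (−0.02, limma adjusted p = 0.871), but was called as fallen under poly-A scaling (−0.39, limma adjusted p = 0.00469). Of 9 other JAK-STAT inhibitor genes 5 rose and 0 fell, among them Pias3 (1.09) and Pias1 (0.70), but 3 rose without control replicate 1, without control replicate 3 or without starved replicate 1. Under median centring 3 of them rose and 2 fell, and under poly-A scaling 2 rose and 4 fell. The phosphatase gene Ptpn2 rose by 0.39 in its brightest probe set, which lay at 0.02 under that scaling, and of its dimmer probe sets 1 rose (0.31, and −0.06 and not called under that scaling) and 2 fell (−1.13 and −0.82). Of 4 ISG15 conjugation genes 2 rose, Trim25 (1.80) and Arih1 (0.60, a call lost under that scaling), while Uba7 (−0.10) and Ube2l6 (0.04) were not called. Of the dimmer Arih1 probe sets 1 rose (0.25) and 1 was not called (0.25). Both lay below 0 under poly-A scaling (−0.13 and −0.12) and were not called there. Under poly-A scaling Uba7 lay at −0.47 and Ube2l6 at −0.33, and both were called as fallen.

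Targets of ISGF3 and of IRF1 were mostly higher, and those of the gp130 pathway went both ways. Of 23 ISGF3 targets 22 rose, with a median of 1.84 (1.46 under poly-A scaling, where 20 rose and 1 fell), led by Ifit3 (4.66) and Ifit1 (4.33), while Oas3 was not called (0.08) and under poly-A scaling was the gene called as fallen (−0.29). Of 24 targets of interferon gamma and IRF1 18 rose and 0 fell, with a median of 1.09, among them Irgm2 (3.11) and Gbp3 (3.08), and under poly-A scaling 17 rose and 6 fell. Of 22 genes of gp130 cytokines, their receptors and STAT3 targets, the pathway that SOCS3 restrains, 5 rose and 7 fell, with a median of −0.03, and under poly-A scaling 3 rose and 15 fell. The kinase gene Pim1 rose by 1.75 and Timp1 by 0.69, while the transcription factor genes Cebpd and Myc fell by 1.18 and 0.83. Il6 fell by 0.53 (7.03 ± 0.20 in starved and 7.56 ± 0.01 in control cells, SD, n = 3), and Il6st, the gene for gp130, was not called by its brightest probe set (0.13), though 1 of its dimmer probe sets rose (0.21). Under poly-A scaling the brightest turned to −0.24 and was called as fallen (limma adjusted p = 0.0268), and the dimmer one lay at −0.16 and was not called. Over all genes 21.3% rose and 20.7% fell in the deposited scaling, whereas under poly-A scaling most of all probe sets fell.

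**Figure D4:**
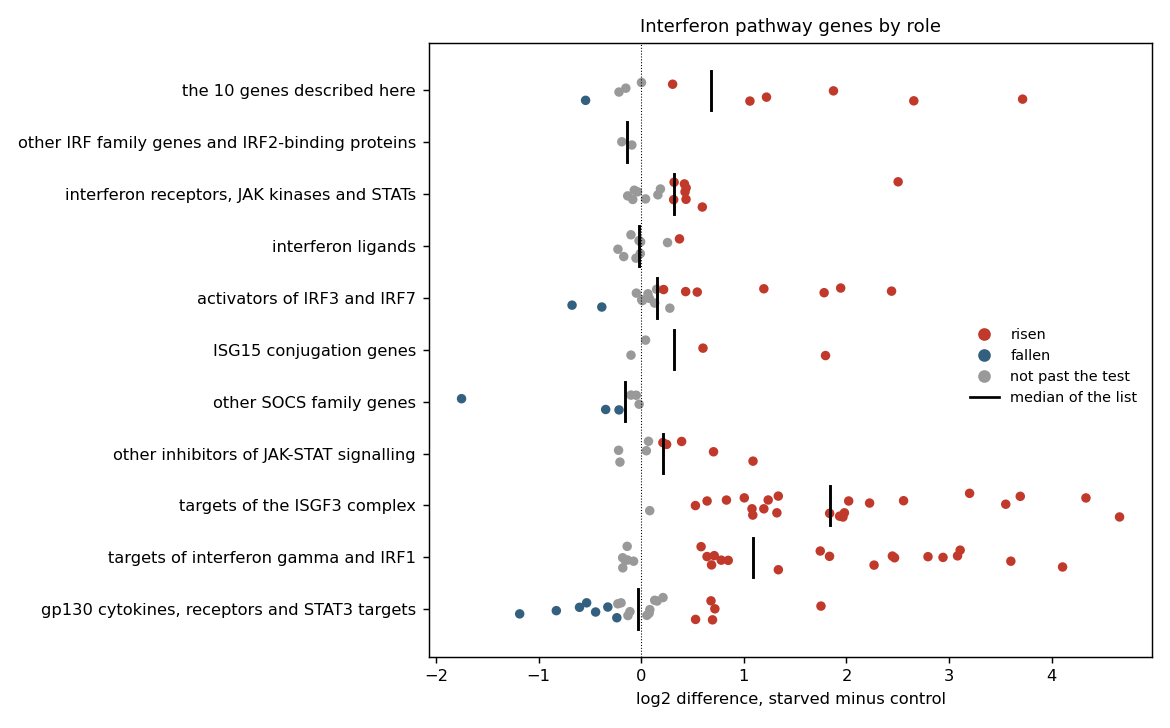
Log2 difference, starved minus control (x axis), of the brightest probe set of each gene in 10 groups of interferon pathway genes and in the 10 genes described here (rows). Points are genes, in red where they rose, blue where they fell and grey where they were not called, and black bars are medians. The ISGF3 targets have the highest median, 1.84, and the other SOCS genes hold the lowest point, Socs2 at −1.75.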

How the data were processed

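Total RNA of starved and control fibroblasts was labelled with biotin and hybridised with 1 sample per array, per the labels' protocols. The authors deposited log2 values, 1 per probe set and array, made with affy and RMA per the submitters' processing notes, with versions not given in the sources used here. This method equalises the signal distribution of the arrays, so a change in total messenger RNA per cell is removed, and it compresses folds of dim genes. Arrays give no read depth, and their number limits the precision.

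Gene names came from the platform annotation. Of 22690 probe sets, 64 were array controls, 691 had several genes and 1555 none listed, and these were left out. No filter on dim probe sets was applied. Groups came from the sample titles, and 6 arrays entered limma 3.58.1 (lmFit, then eBayes, with two-sided tests and no covariate) under R 4.3.3. Same-numbered arrays did not deviate together (correlations of same-numbered deviations −0.05 to −0.01). With 3 arrays per group this cannot tell whether a number marks a shared culture or day. Promoter windows came from RefSeq and were searched with Python 3.11.15, and plots used matplotlib 3.10.9. The members, the gene groups and the tests were chosen with earlier results of these data known. Of 164 genes in the groups 131 were measured. Genes named beyond the 10 are a fixed set, up to 2 risen and 2 fallen genes of smallest adjusted p in each group, and the 3 nearest to each of the 2 members with the largest difference. Some genes of the fixed set are not reported here. Thy1, Cd14, Socs5, Uba7, Ube2l6 and Oas3 were named after their values were seen. In 10 simulations of 3 arrays against 3 with 20380 probe sets, 200 probe sets were changed and no shift of whole arrays was simulated. The fit recovered 52.7% of changes of 0.5, 91.2% of changes of 1 and 99.7% of changes of 2 on the log2 scale. Of its calls 4.45% were false. The real comparison called 8339 probe sets, so these shares need not hold for it.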

Additional observations from a re-analysis of the deposited data

Results flagged for a closer look

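Array controls outside the comparison differed between the groups. The poly-A spike-ins were higher on starved arrays, 7.23 to 7.40 against 6.93 to 6.94 on control arrays, a mean difference of 0.375 with 25 of 27 probe sets higher. The hybridization spike-ins were higher as well, 10.26 to 10.37 on starved against 10.12 to 10.14 on control arrays, by a mean of 0.188 with 18 of 18 probe sets higher. Groups of 3 arrays are too small for a search for single deviating arrays.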

How the results depend on the processing

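The rises of Usp18, Irf7, Irf9, Irf2 and Irf1 kept their direction and their call in every alternative that kept their probe set, with lowest differences of 3.34, 2.28, 1.499, 0.85 and 0.68. So did the fall of Socs3 by its brightest probe set or the mean of its 3, from −0.92 (brightest, poly-A scaling) to −0.48 (mean). Each dimmer Socs3 probe set lost its call in 1 alternative, treat against a fold change of 1.2 (limma adjusted p of 0.144 and 0.245). Over all probe sets 8339 were called, against 15891 under poly-A scaling, 3492 with treat against a fold change of 1.2, and 5491, 5463 and 5413 where fewer features were tested (without probe sets ending in _s_at, _x_at or _a_at, with the brightest probe set per gene, and with the mean per gene). Of the 17 member probe sets 10 were called, 6 with treat and 3 of 7 left without those endings. Without probe sets ending in _s_at or _x_at, a choice made after seeing the data, 7 of 13 were called. In the main fit 40.9% of all probe sets were called, and the shares over all probe sets left in these settings are not given here. Leaving out each array in turn gave 6733 to 8212 calls in all and 10 to 11 among the members. With a block for the replicate number the fit called 7798 in all and 11 among the members, with the Irf3 probe set at 0.25 added (adjusted p = 0.0493), and changed no other member call. Of the 6 starved and control arrays, no same-numbered pair deviated together.

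Under poly-A scaling, Socs1 (−0.0685) and the dimmer Irf5 probe set (−0.0668) turned direction, as did the Irf3 probe sets from brightest to dimmest (−0.372, −0.311, −0.129 and −0.299). With centring on the hybridization spike-ins 3 of the Irf3 probe sets turned (−0.185, −0.124 and −0.112), and Socs1 and the dimmer Irf5 probe set were no longer called (0.12 each). The brightest Irf3 probe set, close to 0, also lay below 0 with median centring (−0.0448), a further quantile normalization (−0.0449), without starved replicate 2 (−0.0368), without control replicate 1 (−0.00253) and without control replicate 3 (−0.0129), and ranged from −0.0368 to 0.0418 over the single arrays left out. The dimmest ranged from −0.144, without starved replicate 2, to 0.260. The mean of the Irf5 probe sets turned to 0.0789. A centring error moves all genes alike. The cause of these shifts was not tested. Calls of gene groups, cell markers and named genes under other scalings and without single arrays were added after seeing the data. Signal near the dim end limits Irf8, Irf4, Tlr9 and the interferon ligand genes, Ifnb1 among them.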
